A study of Mus musculus with 9 samples.

Results

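The unfolded protein response and the integrated stress response were followed through 38 genes in mouse monocyte-derived dendritic cells, a culture model of the cells that present antigen to T cells. The 38 genes were chosen by symbol from a list of stress sensors, their transcription factors and their targets, and each had 1 row among the 52476 symbols of the series. They comprised 8 sensors and transcription factors and 13 endoplasmic reticulum (ER) chaperones and foldases. A further 6 were grouped as targets of the factor XBP1 in ER-associated degradation and translocation, though their dependence on XBP1 was not tested here. The rest were 6 genes grouped as stress targets of the factors ATF4 and CHOP, and 5 enzymes of amino acid and one-carbon metabolism. The ATF4 and CHOP group also held Ppp1r15b, whose product is constitutive. Levels are given in FPKM (fragments per kilobase of transcript, scaled by library depth), so levels of different genes are compared per length. The members ranged from 3.21 FPKM for Eif2ak3 to 342 FPKM for Atf4. All 38 were therefore among the 11768 genes tested, which reached 1 FPKM in 3 or more of the 9 libraries, and no member owed its place to 1 group.

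The 9 mRNA-seq libraries came from C57BL/6 cells, with 3 libraries in each of 3 groups. In all groups, per the labels' protocols, marrow monocytes spent 7 days in culture with the cytokines GM-CSF (100 ng/mL) and IL-4 (50 ng/mL) before flow cytometric sorting. Control libraries are labelled as having had no stimulation. For the R837 libraries, 24 h of interferon α preceded 18 h of R837, also named imiquimod, which activates Toll-like receptor 7. In the third group spermidine, a natural polyamine, was present together with R837 for the same time, and its libraries are called spermidine replicates 1 to 3. The labels give no dose of R837 or spermidine. They also do not say whether the control cells had interferon α, so an effect of R837 and one of the priming cannot be told apart. Nothing says that replicates came from separate cultures or animals, so p-values reflect only how far these libraries vary, possibly for technical reasons.

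In the unfolded protein response, misfolded protein in the ER activates 3 membrane sensors: IRE1α (gene Ern1), ATF6 and PERK (gene Eif2ak3). IRE1α splices the Xbp1 transcript so that it encodes an active factor, ATF6 is cut to release a factor, and PERK phosphorylates the initiation factor eIF2α. Phosphorylated eIF2α slows most translation but favours translation of ATF4, the shared step of the integrated stress response, which other kinases also trigger. XBP1 and ATF6 act on chaperone and degradation genes, and ATF4 acts with CHOP on genes of amino acid supply, redox balance and recovery of translation. Dendritic cells are known to depend on IRE1α and XBP1 for their survival and for antigen presentation. Splicing of Xbp1, cutting of ATF6 and translation of Atf4 leave no trace in a single value per gene, and were not measured here.

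The promoters of several members share sequence elements. The genes were chosen by symbol as known stress genes, so these matches are not independent of the choice and are given as description. RefSeq promoter windows on GRCm38.p6, from 250 bases before to 50 after the start site, were found for 34 of the 38 members (Atf6, Hyou1, Ppp1r15b and Manf had no entry). They were searched on both strands for exact letters. The ER stress response element (ERSE: CCAAT, then 9 bases, then CCACG) stood in 8 of the 34 members. Among all 27025 genes it stood in 37, 0.137% of them, and among all 32851 windows in 39, 0.119% of them. The 8 members were Hspa5, Hsp90b1, Calr, Canx, Pdia6, Dnajc3, Creld2 and Syvn1, of which 7 are chaperone or foldase genes and Syvn1 is a ubiquitin ligase gene. A shorter form, ERSE-II (ATTGG, 1 base, CCACG), stood in Herpud1 and Dnajb11 and in 0.0365% of all windows. The letters TGATGNAAT, one form of the composite site for ATF4 and its partners, stood in Nupr1 (0.965% of all windows), and the cyclic AMP element TGACGTCA in Ppp1r15a (1.79%). The XBP1 element TGACGTGG stood in 0 members and in 0.676% of all windows. It shares its first 6 letters with the cyclic AMP element, and no matches in the members overlapped each other.

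The stretches below set the ERSE of Hspa5, Calr, Hsp90b1 and Dnajc3, which passed in some comparison, beside that of Canx and Pdia6. Canx and Pdia6 passed in no comparison with all libraries, but the split rests on the threshold. With spermidine against R837 the log2 change was 0.45 for Calr, which passed, and 0.41 for Canx, which did not. Dnajc3 fell with R837 and did not pass with spermidine against R837. Herpud1, Nupr1 and Ppp1r15a also passed in some comparison and hold other elements, for which no member without a call is shown. Each is given 5′ to 3′ on the strand of its gene, with the motif in capitals and 5 bases on either side, and the matches in Calr, the second in Hsp90b1 and that in Nupr1 read on the opposite strand.
Hspa5, chr2:34772020-34772048, plus strand: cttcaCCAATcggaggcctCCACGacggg
Calr, chr8:84847070-84847098, minus strand: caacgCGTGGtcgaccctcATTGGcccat
Canx, chr11:50325795-50325823, minus strand: attgaCCAATcaccacgctCCACGaagaa
Pdia6, chr12:17266486-17266514, plus strand: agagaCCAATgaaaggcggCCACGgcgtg
Dnajc3, chr14:118937822-118937850, plus strand: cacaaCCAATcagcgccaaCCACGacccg
Hsp90b1, chr10:86705528-86705661, minus strand: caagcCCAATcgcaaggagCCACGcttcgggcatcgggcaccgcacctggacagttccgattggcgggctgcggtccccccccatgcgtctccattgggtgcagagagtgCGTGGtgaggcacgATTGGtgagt
Herpud1, chr8:94386372-94386392, plus strand: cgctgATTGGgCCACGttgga
Nupr1, chr7:126625568-126625586, minus strand: gccagATTgCATCAgacag
Ppp1r15a, chr7:45526268-45526285, minus strand: tccggTGACGTCAgcaca
The stretches of Hspa5 and Nupr1 lie before the RefSeq start but inside the bounds of these genes in GENCODE.

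**Figure D1:**
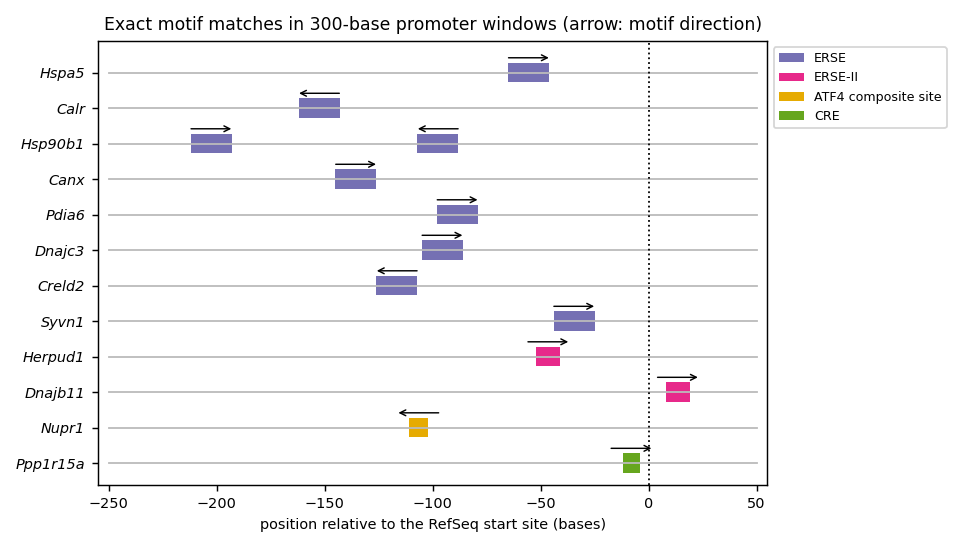
Exact motif matches in the RefSeq promoter windows of the 12 members that held one, drawn by distance in bases from the RefSeq start site (dotted line), with arrows for the motif's direction. The ERSE begins at position -65 in Hspa5 and at -44 in Syvn1, and Hsp90b1 holds 2 of them, whereas the ERSE-II of Dnajb11 lies just after the start.

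Depth read from the steps of the low values was 10700000 to 14500000 units a library (reads or pairs, not settled), so an FPKM of 1 for a 1 kb transcript rested on 10.7 to 14.5 units. Pearson's r between libraries of a group on the log2(FPKM + 1) scale was 0.984 to 0.985 for controls and 0.983 to 0.986 for R837 with spermidine, but 0.967 and 0.969 for the pairs that include R837 replicate 2. That library was the lowest of the 3 R837 libraries for 14 members and the highest for 18, and R837 replicate 3 was the lowest for 14 and the highest for 9. All 5 erythroid markers reached an FPKM of 1 in some library, and their sum was 276 FPKM in R837 replicate 2, 1980 in R837 replicate 3, 0 in R837 replicate 1 and at most 11 elsewhere. Neutrophil markers, 4 of 5 at an FPKM of 1, summed to 211 FPKM in R837 replicate 3 and to 31.3 to 42 in the other libraries. Markers of monocyte-derived dendritic cells reached an FPKM of 1 in some library for 8 of 10 genes, with Cd209a listed at 0 in every library and Flt3 under 1. Zbtb46 reached it only in the treated groups, with means of 0.596 FPKM in controls, 1.98 with R837 and 1.52 with both. Of the markers of plasma cells, which carry a high unfolded protein response, 2 of 6 reached an FPKM of 1, and the list summed to 40.4 to 50.3 FPKM in controls, 45.3 to 52.9 with R837 and 41.3 to 53.2 with both. Mzb1 and Tnfrsf17 were listed at 0 and Jchain reached at most 0.0485 FPKM, while Sdc1, a surface proteoglycan, stood at 34.6 to 47.7 FPKM in all libraries. Prdm1, a repressor that myeloid cells also express, averaged 2.3 FPKM in controls and 9.97 with R837, a rise of 1.73 ± 0.11 on the log2 scale (limma adjusted p = 3.8e-06), and 5.9 with both (-0.68 ± 0.11 against R837, limma adjusted p = 0.0062). The part of the admixed markers in the results was not tested, and member counts without R837 replicates 2 and 3 stand beside those with them. Those counts were added after the values were seen and leave 1 R837 library, which is assumed to vary like the rest.

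R837 against control asks how the agonist, after interferon α, changed these genes. Of the 38 members 9 rose and 9 fell by limma's test on log2(FPKM + 1) with Benjamini-Hochberg adjustment over all tested genes and a threshold of 0.05. This is 47.4% of the members, near the 43.2% of all 11768 genes that passed in this comparison (13.6% higher and 29.5% lower), so the number of calls itself is no result about these genes. The groups did not overlap for 22 members, against 54.0% of all genes. Members that rose were Ern1, Nupr1, Hspa5, Herpud1, Ppp1r15a, Ppp1r15b, Chac1, Phgdh and Mthfd2. Those that fell were Xbp1, Atf6, Eif2ak3, Ddit3, Dnajc3, Pdia4, Sdf2l1, Hyou1 and Edem1. Without R837 replicates 2 and 3 there were 7 higher and 9 lower. The median change of all genes was -0.17 on the log2 scale and -0.02 after median-of-ratios scaling, so a small fall in FPKM lies near the bulk of the genes. In bulk RNA fewer cells of a type and less RNA per cell cannot be told apart.

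R837 with spermidine against R837 asks what the polyamine changed in stimulated cells. Here 7 members rose and 6 fell, 34.2% of the 38, where 13.6% of all genes passed (5.60% higher and 8.0% lower). The groups did not overlap for 18 members, against 32.9% of all genes. The risen members were Xbp1, Hspa5, Hsp90b1, Pdia3, Pdia4, Calr and Edem1, and the fallen ones were Ern1, Nupr1, Herpud1, Psat1, Phgdh and Shmt2. The median over the members was -0.05, beside -0.02 over all genes. Only Xbp1, Nupr1 and Pdia3 kept an adjusted p under 0.05 without each single library, 3 of the 13 calls. Without R837 replicates 2 and 3 the count was 2 higher (Pdia3 and Edem1) and 1 lower (Nupr1). Both comparisons use the same R837 libraries, so a high or low value there enters both with opposite sign, and the changes are set side by side below without a test of one against the other.

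**Figure D2:**
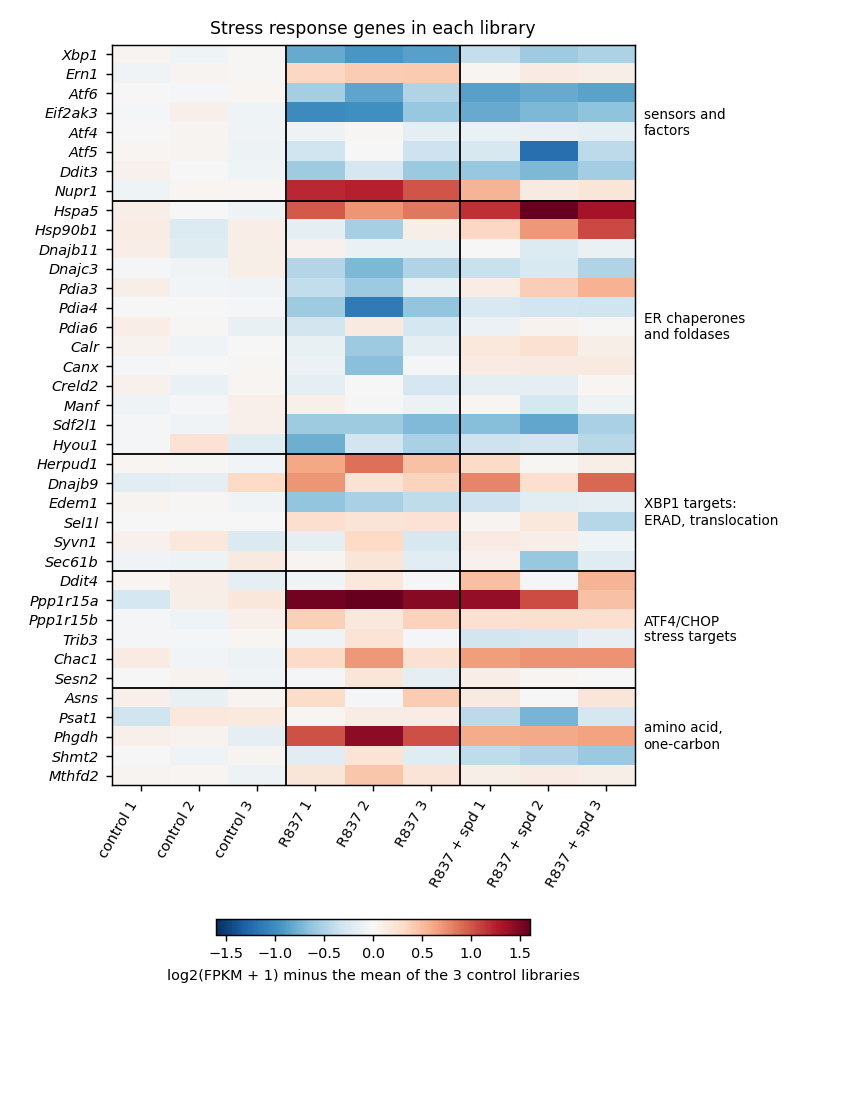
Each member in each of the 9 libraries, coloured by log2(FPKM + 1) minus the mean of the 3 control libraries, with the genes grouped by role. Ppp1r15a, Nupr1 and Phgdh are red in all R837 libraries and paler with spermidine, Xbp1 and Eif2ak3 are blue in both treated groups, and Hspa5 is deepest red with spermidine.

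The 3 sensor genes did not move alike with R837. Ern1 (ENSMUSG00000020715.9, chromosome 11, 106394650 to 106487852 on mm10), the gene of IRE1α, stood at 20.4, 21.8 and 21.4 FPKM in the controls, 27.0, 28.4 and 28.6 with R837, and 21.6, 23.4 and 22.6 with R837 and spermidine. Every R837 library lay above all 6 others. Ern1 rose with R837 by 0.38 ± 0.07 (SE) on the log2 scale (limma adjusted p = 0.0016) and fell when spermidine was present (-0.30 ± 0.07 on the log2 scale, limma adjusted p = 0.019). The second call was lost without spermidine replicate 1 or 3 (limma adjusted p = 0.061 and 0.069).

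Atf6 (ENSMUSG00000026663.6, chromosome 1, 170704674 to 170867771), whose product is the factor released from the ER membrane, stood at 13.7, 13.3 and 13.9 FPKM in the controls, 9.05, 7.16 and 9.44 with R837, and 7.00, 7.36 and 7.06 with both. All treated libraries lay under all controls. Atf6 fell by 0.62 ± 0.10 on the log2 scale with R837 (limma adjusted p = 0.00086). The spermidine change, -0.22 ± 0.10, did not pass (limma adjusted p = 0.17), but it passed without R837 replicate 2, the lowest R837 library (-0.33, limma adjusted p = 0.011). Eif2ak3 (ENSMUSG00000031668.14, chromosome 6, 70844515 to 70905245), the gene of the kinase PERK, was at 7.39, 8.0 and 7.12 FPKM in the controls, 3.21, 3.32 and 4.57 with R837, and 3.86, 4.15 and 4.44 with both. R837 libraries held between 3.21 and 4.57 FPKM, so the treated groups overlapped each other and lay clear of the controls. Eif2ak3 fell by 0.87 ± 0.12 with R837 (limma adjusted p = 0.00033), and the spermidine change of 0.14 ± 0.12 did not pass (limma adjusted p = 0.44). Of its 6026 exon bases 485 are shared with the opposite-strand transcript Gm43292, listed at no more than 0.43 FPKM. The strand setting of the counting is not given in the sources used here.

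Among the transcription factors, Xbp1 moved in both comparisons and Atf4 in neither. Xbp1 (ENSMUSG00000020484.18, chromosome 11, 5520659 to 5525893), the factor that IRE1α activates by splicing, stood at 27.0, 25.0 and 26.5 FPKM in the controls, 14.5, 13.3 and 13.9 with R837, and 19.8, 17.3 and 18.2 with R837 and spermidine. The 3 groups did not overlap, with R837 lowest and the spermidine group in between. Xbp1 fell by 0.87 ± 0.07 on the log2 scale with R837 (limma adjusted p = 2.2e-05), to 0.532 of the control mean. With spermidine it rose by 0.38 ± 0.07 against R837 (limma adjusted p = 0.012), to 1.33 times the R837 mean. The value without R837 replicates 2 and 3 was 0.33 (limma adjusted p = 0.093).

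Atf4 (ENSMUSG00000042406.7, chromosome 15, 80255184 to 80257541) had the highest single value of the members, with 331, 342 and 319 FPKM in the controls, 312, 334 and 298 with R837, and 308, 305 and 296 with both. The control and R837 libraries overlapped. The changes were -0.07 ± 0.07 with R837 and -0.05 ± 0.07 with spermidine (limma adjusted p = 0.42 and 0.62), and the first became 0.11 under median-of-ratios scaling, also not past the threshold. Ddit3 (ENSMUSG00000025408.15, chromosome 10, 127290774 to 127296288) encodes CHOP, a factor that ATF4 induces and that acts in stress-induced cell death. It stood at 192, 184 and 175 FPKM in the controls, 123, 152 and 121 with R837, and 120, 111 and 124 with both. All treated libraries lay below all controls, and the treated groups overlapped. Ddit3 fell by 0.48 ± 0.10 with R837 (limma adjusted p = 0.0036), and the spermidine change of -0.15 ± 0.10 did not pass (limma adjusted p = 0.34). Ddit3 shares 68 exon bases with the opposite-strand gene Mars, which reached 17.9 FPKM.

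Atf5, a further stress-induced factor of the ATF4 family, read 76.4, 77.1 and 70.6 FPKM in the controls, 59.8, 75.1 and 59.0 with R837, and 62.1, 31.7 and 55.7 with both. Replicate 2 of the spermidine group stood apart at 31.7 FPKM. Neither change passed (-0.21 with R837, limma adjusted p = 0.45, and -0.42 with spermidine, limma adjusted p = 0.24). Nupr1 (ENSMUSG00000030717.9, chromosome 7, 126623249 to 126630861) encodes a small chromatin-associated stress protein and its promoter holds the ATF4 composite letters shown above. Its values were 6.83, 7.37 and 7.35 FPKM in the controls, 17.8, 18.3 and 15.5 with R837, and 10.9, 8.03 and 8.32 with both. The groups did not overlap, with the spermidine group between the others. Nupr1 rose by 1.15 ± 0.11 on the log2 scale with R837 (limma adjusted p = 5.1e-05), to 2.39 times the control mean. It fell with spermidine, to 0.528 of the R837 mean (log2 change -0.86 ± 0.11, limma adjusted p = 0.0021), and without R837 replicates 2 and 3 this call remained.

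In all, 2 of the 8 sensors and factors rose with R837 and 4 fell, where 13.6% of all genes rose and 29.5% fell, with a median change of -0.35 beside -0.17 over all genes. With spermidine 1 rose and 2 fell, where 5.60% of all genes rose and 8.0% fell, with a median of -0.19 beside -0.02. Without R837 replicates 2 and 3 the spermidine counts were 0 higher (limma adjusted p = 0.093 for Xbp1) and 1 lower, and the second was also 1 without spermidine replicate 1 or 3.

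**Figure D3:**
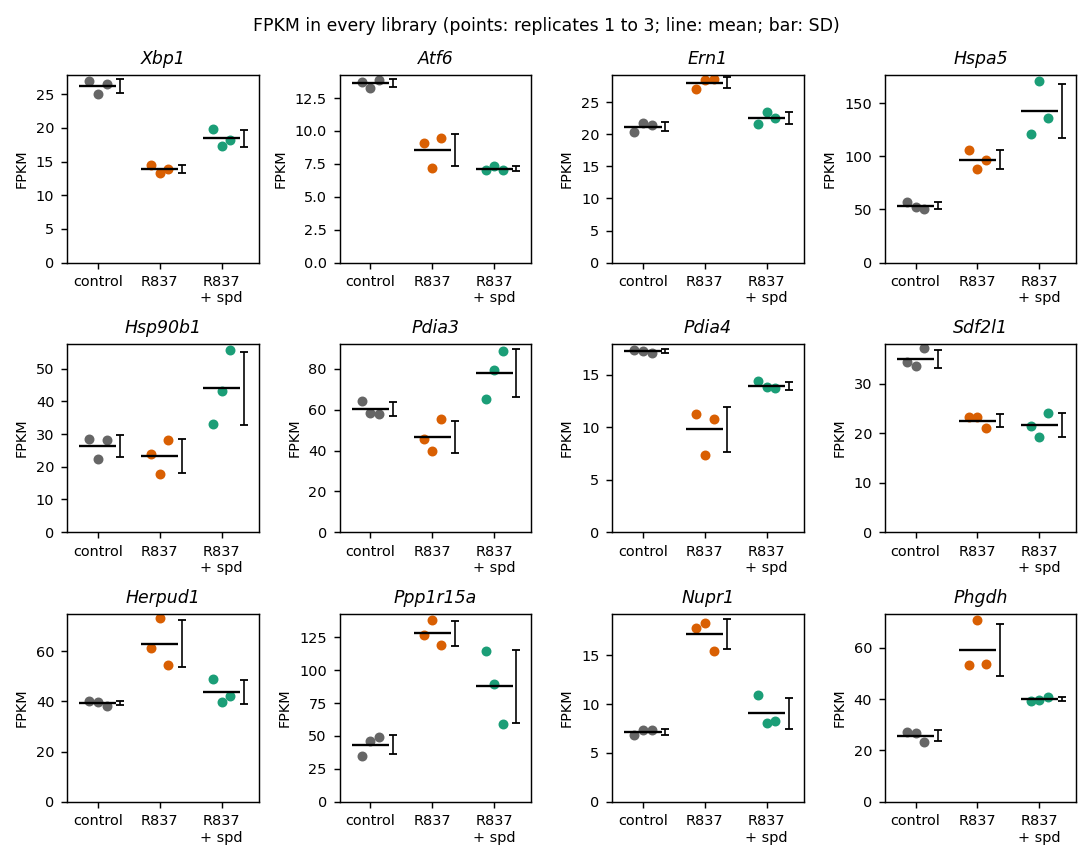
FPKM of 12 members in every library, with 1 point for each replicate, the group mean as a line and the SD as a bar. Xbp1 is lowest with R837 (13.3 to 14.5 FPKM), Hspa5 climbs from at most 56.9 in controls to at least 121 with spermidine, and Nupr1, Herpud1 and Phgdh peak in the R837 libraries.

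Of the 13 ER chaperones and foldases Hspa5 rose with R837 and Dnajc3, Pdia4, Sdf2l1 and Hyou1 fell, 38.5% called where 43.2% of all genes were, with a median change of -0.27 beside -0.17 over all genes. With spermidine 5 rose and 0 fell against R837 (5.60% and 8.0% of all genes), and the median was 0.20 beside -0.02, with 10 of the 13 above the median of all genes. The count of risen chaperones was 3 without any 1 control library or without spermidine replicate 1. It was 1 without spermidine replicate 2, without replicate 3, or without R837 replicates 2 and 3. The 7 handling and heat shock genes summed to 94.5 to 116 FPKM with R837 and 139 to 146 with spermidine. In controls they summed to 157 to 167 FPKM. Their part in the chaperone result was not tested. Jun, the largest part of that sum, averaged 119 FPKM in controls, 54.1 with R837 and 71.5 with spermidine. Hspa1a, an inducible cytosolic chaperone of that list, stood at 7.84 ± 0.404 FPKM in controls (SD, n = 3), 13.3 ± 1.56 with R837 and 23.6 ± 0.383 with spermidine. Its relative Hspa1b averaged 6.8, 13.1 and 22.6 FPKM in the same order.

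Hspa5 (ENSMUSG00000026864.13, chromosome 2, 34771970 to 34777547) encodes BiP, the main Hsp70 chaperone of the ER, which also holds the sensors inactive. It stood at 56.9, 52.8 and 50.3 FPKM in the controls, 106, 87.9 and 96.5 with R837, and 121, 171 and 136 with both. The 3 groups did not overlap and the order was control, R837, R837 with spermidine. Hspa5 rose by 0.84 ± 0.13 with R837 (limma adjusted p = 0.00071), 1.81 times the control mean. It rose again by 0.55 ± 0.13 with spermidine against R837 (limma adjusted p = 0.025). The second call was lost without R837 replicate 2 or 3 (limma adjusted p = 0.054 and 0.050) and without spermidine replicate 2 or 3 (0.062 and 0.068).

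Hsp90b1 (ENSMUSG00000020048.13, chromosome 10, 86690209 to 86705509) encodes GRP94, the ER form of Hsp90, which folds Toll-like receptors and integrins. Its values were 28.5, 22.5 and 28.3 FPKM in the controls, 23.8, 17.8 and 28.2 with R837, and 33.2, 43.1 and 55.6 with both. Control and R837 libraries overlapped, and the spermidine libraries lay above all others with a wide spread. The R837 change was -0.19 ± 0.21 (limma adjusted p = 0.48), and with spermidine Hsp90b1 rose by 0.88 ± 0.21 (limma adjusted p = 0.025). That call was lost without R837 replicate 1 or 2 (limma adjusted p = 0.054 for each) and without spermidine replicate 2 or 3 (0.076 and 0.084). The gene contains the small RNA gene Gm25745, which shares 133 exon bases and was listed at up to 153 FPKM, so its reads may be split between them.

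Pdia3 (ENSMUSG00000027248.13, chromosome 2, 121413775 to 121438687) encodes ERp57, a disulfide isomerase that works with calreticulin and in the loading of MHC class I molecules. It stood at 64.4, 58.4 and 58.0 FPKM in the controls, 45.4, 39.8 and 55.2 with R837, and 65.3, 79.3 and 88.8 with both. No groups overlapped, with R837 lowest. The R837 change of -0.37 ± 0.14 did not pass (limma adjusted p = 0.059), although it did without R837 replicate 3 (0.020) or spermidine replicate 1 (0.042). With spermidine Pdia3 rose by 0.72 ± 0.14, 1.66 times the R837 mean (limma adjusted p = 0.011), and this call stood without each single library and without R837 replicates 2 and 3.

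Pdia4, a related isomerase, read 17.4, 17.3 and 17.1 FPKM in the controls, 11.3, 7.36 and 10.8 with R837, and 14.4, 13.8 and 13.7 with both. R837 replicate 2 was the lowest library, and the groups did not overlap. Pdia4 fell by 0.77 ± 0.13 with R837 (limma adjusted p = 0.0016) and rose by 0.48 ± 0.13 with spermidine (limma adjusted p = 0.044). The rise was lost without any 1 control (limma adjusted p = 0.069 to 0.071) and without any 1 spermidine library (0.10 to 0.11). Calr, the gene of the lectin chaperone calreticulin, averaged 157 ± 6.42 FPKM in controls, 131 ± 22.3 with R837 and 177 ± 8.6 with both (SD, n = 3). Calr rose with spermidine by 0.45 ± 0.12 (limma adjusted p = 0.039), and missed the threshold without any 1 control (limma adjusted p = 0.062 to 0.064) or any 1 spermidine library (0.084 to 0.12). Canx, the gene of its membrane-bound partner calnexin, averaged 58.1 ± 0.843, 49.1 ± 11.3 and 64.2 ± 0.263 FPKM. Its spermidine change of 0.41 passed only without R837 replicate 2, as 0.21 (limma adjusted p = 0.027).

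The chaperone genes Dnajc3, Sdf2l1 and Hyou1 fell with R837 and did not pass with spermidine. Dnajc3, whose product p58IPK is a co-chaperone of BiP, was at 14.3, 14.1 and 15.7 FPKM in controls, 10.3, 8.57 and 10.2 with R837, and 11.3, 12.2 and 10.2 with both. Sdf2l1, which acts in a BiP complex, was at 34.4, 33.5 and 37.1 FPKM, then 23.3, 23.2 and 21, then 21.4, 19.3 and 24.1. Hyou1, an Hsp70-like nucleotide exchange factor of BiP, was at 14, 17.1 and 12.4 FPKM, then 7.98, 11.6 and 9.74, then 11.2, 11.5 and 10.3. In each of them all R837 libraries lay below all controls and overlapped the spermidine libraries. The falls with R837 were 0.56, 0.61 and 0.53 on the log2 scale, so Dnajc3 fell by 0.56 ± 0.10 (limma adjusted p = 0.0016), Sdf2l1 by 0.61 ± 0.09 (0.00069) and Hyou1 by 0.53 ± 0.14 (0.016). The Hyou1 call was lost without control replicate 2 or R837 replicate 1 (limma adjusted p = 0.059 and 0.051) and with median-of-ratios scaling (0.081).

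Dnajb11, Pdia6, Creld2 and Manf, chaperone, isomerase and secreted ER stress genes, passed in no comparison. Their group means lay between 10.8 and 32.8 FPKM and their changes in the first 2 comparisons between -0.14 and 0.14 with all libraries. Without R837 replicate 2 the R837 change of Pdia6 was -0.28 (limma adjusted p = 0.021). Of the 8 members with an ERSE, Hspa5, Hsp90b1 and Calr rose with spermidine, where 5.60% of all genes rose. Each of these calls was lost without spermidine replicate 2 or 3. Dnajc3, Pdia6, Canx, Creld2 and Syvn1 did not pass. Pdia3 and Pdia4 rose as well and held no exact ERSE in the window. Outside the members 5 tested genes held an ERSE, too few to set apart from the 13.6% of all genes that passed with spermidine. In limma's test 0 of these 5 passed. At an unadjusted p under 0.05 there was 1, Gm20560, at -0.35 on the log2 scale (limma adjusted p = 0.083).

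**Figure D4:**
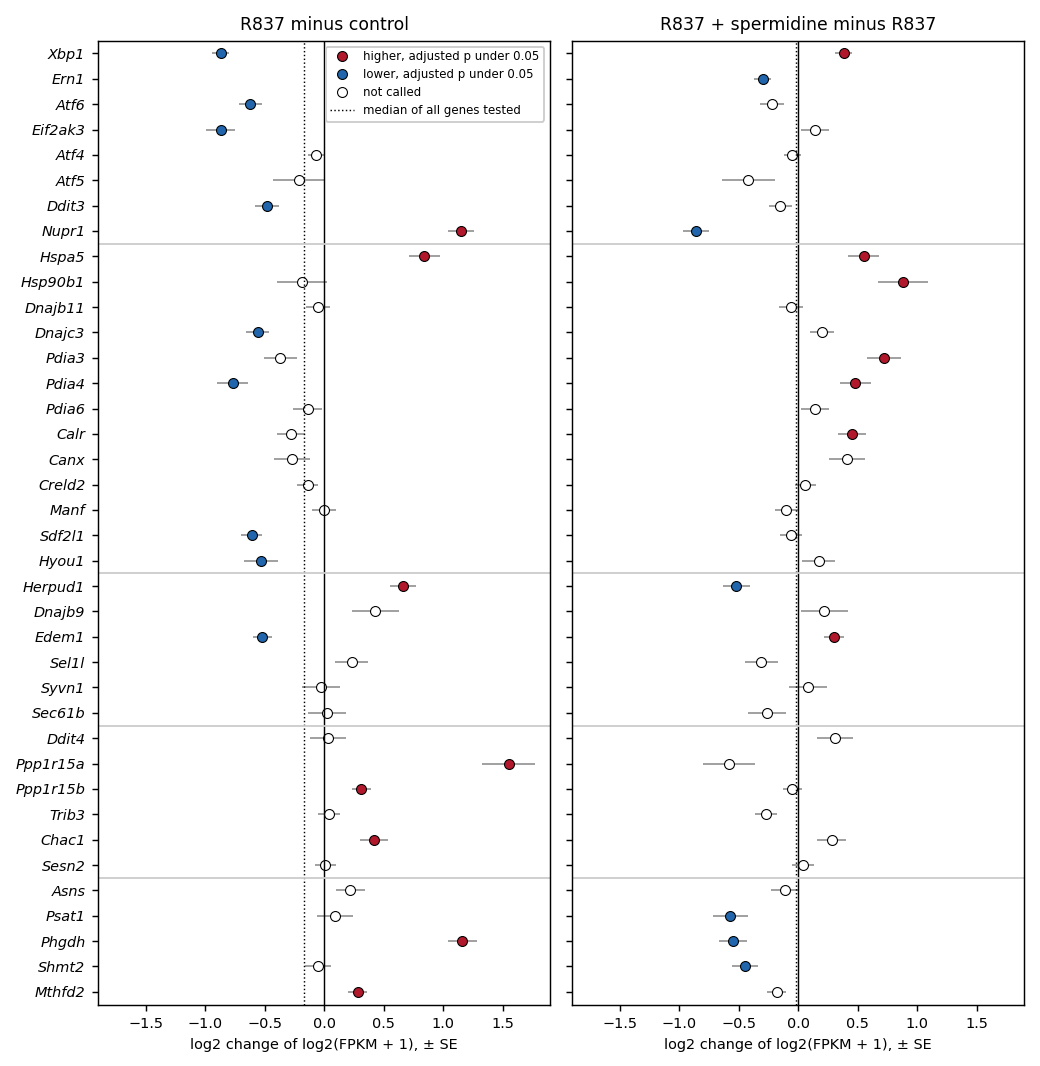
Log2 change of each member with its standard error for R837 against control (left) and for R837 with spermidine against R837 (right), filled where the limma adjusted p was under 0.05. The dotted line is the median of all tested genes, -0.17 on the left and -0.02 on the right, and 5 of the 13 chaperone genes are filled red on the right.

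Of the 6 genes grouped as XBP1 targets in degradation and translocation, 1 rose and 1 fell with R837, and 1 rose and 1 fell with spermidine. This was 33.3% called in each, where 43.2% and 13.6% of all genes were. The medians were 0.12 and -0.09. Herpud1 (ENSMUSG00000031770.16, chromosome 8, 94386438 to 94395377), a membrane protein of the degradation complex, stood at 40.1, 39.8 and 38.3 FPKM in the controls, 61.2, 73.3 and 54.7 with R837, and 49.0, 39.8 and 42 with both. All R837 libraries lay above the other 6, and the spermidine and control libraries overlapped. Herpud1 rose by 0.66 ± 0.11 with R837 (limma adjusted p = 0.0017) and fell with spermidine (-0.52 ± 0.11 on the log2 scale, limma adjusted p = 0.020). The fall was lost without spermidine replicate 2 or 3 (limma adjusted p = 0.076 for each) and without R837 replicates 2 and 3 (0.054).

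Edem1, which draws misfolded glycoproteins from folding into degradation, went the other way. It stood at 45.3, 44.5 and 42.2 FPKM in the controls, 28.0, 30.5 and 33.0 with R837, and 34.8, 39.0 and 39.8 with both. No overlap was seen between the groups, with R837 lowest. Edem1 fell by 0.52 ± 0.08 with R837 (limma adjusted p = 0.0011) and rose by 0.30 ± 0.08 with spermidine (limma adjusted p = 0.044). The rise was lost without any 1 control (limma adjusted p = 0.067 to 0.075), without R837 replicate 1 or 2 (0.12 and 0.056) and without spermidine replicate 2 or 3 (0.13 and 0.15).

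Dnajb9, the BiP co-chaperone ERdj4, read 17.7, 18.0 and 25.4 FPKM in controls, 33.4, 23.8 and 26.0 with R837, and 35.2, 24.3 and 38.7 with both. Its libraries overlapped between all groups, and neither change passed (0.43 with R837, limma adjusted p = 0.12, and 0.22 with spermidine, 0.50), though the first did under median-of-ratios scaling (0.61, limma adjusted p = 0.045). Sel1l and Syvn1, the adaptor and the ubiquitin ligase of the same complex, and Sec61b, a subunit of the translocation channel, did not pass in either comparison. Sel1l was at 29.4 ± 0.105, 34.7 ± 0.755 and 28.2 ± 6.36 FPKM (SD, n = 3), and its R837 change of 0.23 passed only without spermidine replicate 3 (limma adjusted p = 0.032), its widest group.

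In the branch of ATF4 and CHOP stress targets 3 of 6 genes rose with R837 and none fell. Of all genes 13.6% rose and 29.5% fell. The median change was 0.18 beside -0.17 over all genes. The 3 were Ppp1r15a, Chac1 and Ppp1r15b, and the product of Ppp1r15b is constitutive. With spermidine 0 of 6 passed in limma's test, where 1 was higher and 2 lower at an unadjusted p under 0.05. It was 1 higher without R837 replicate 2 (Chac1) or spermidine replicate 2 (Ddit4), and 1 lower without spermidine replicate 1 (Ppp1r15a). Without control replicate 2 the R837 count was 1. Ppp1r15a (ENSMUSG00000040435.12, chromosome 7, 45522916 to 45526268) encodes GADD34, which directs a phosphatase to eIF2α and so restores translation. It stood at 35.1, 45.9 and 48.9 FPKM in the controls, 127, 138 and 119 with R837, and 115, 89.6 and 59.5 with both. The groups did not overlap, and the spermidine libraries ranged from just under R837 to just over the controls. Ppp1r15a rose by 1.55 ± 0.22 on the log2 scale with R837 (limma adjusted p = 0.00042), 2.96 times the control mean and the largest rise among the members in this comparison. The spermidine change of -0.58 ± 0.22 did not pass (limma adjusted p = 0.11), although it did without spermidine replicate 1 (-0.80, limma adjusted p = 0.040).

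Ppp1r15b, which encodes the constitutive partner of the same phosphatase, was at 33.2 ± 1.75 FPKM in controls, 41.4 ± 3.47 with R837 and 39.8 ± 0.374 with both (SD, n = 3). It rose by 0.31 ± 0.08 with R837 (limma adjusted p = 0.012), and missed the threshold without control replicate 2 (0.051). It shares 640 of 5594 exon bases with Gm26616 on the opposite strand, which reached 17.8 FPKM. Chac1, which degrades glutathione and is a target of ATF4 and CHOP, read 11.9, 10.4 and 10.1 FPKM in controls, 13.6, 18.0 and 13 with R837, and 17.7, 18.3 and 18.4 with both. Every treated library lay above every control, and R837 replicate 2 lay near the spermidine libraries. Chac1 rose by 0.42 ± 0.12 with R837 (limma adjusted p = 0.019), and missed the threshold without control replicate 2 or 3 (0.063 and 0.067) and without R837 replicates 2 and 3 (0.051). The spermidine change of 0.28 ± 0.12 (limma adjusted p = 0.15) passed without R837 replicate 2, as 0.42 (0.011). Ddit4 and Sesn2, inhibitors of the growth kinase mTORC1, and Trib3, a pseudokinase that binds AKT and ATF4, did not pass in either comparison. Ddit4 was at 5.68 ± 0.558 FPKM with R837 and 7.39 ± 1.69 with both, and its change of 0.31 passed without spermidine replicate 2 (0.49, limma adjusted p = 0.042).

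In the amino acid and one-carbon branch, 2 of 5 enzymes rose with R837 and 3 of 5 fell with spermidine, with none the other way in either. Of all genes 13.6% rose with R837 and 8.0% fell with spermidine. The medians were 0.22 with R837 and -0.45 with spermidine, beside -0.17 and -0.02 over all genes. The count with R837 was 1 without control replicate 3 or without R837 replicates 2 and 3. With spermidine the count of 3 was 1 without control replicate 2 or 3 or spermidine replicate 1, and 0 without spermidine replicate 2, without replicate 3, or without R837 replicates 2 and 3. Phgdh (ENSMUSG00000053398.11, chromosome 3, 98313170 to 98339990), the first enzyme of serine synthesis, stood at 27.3, 26.8 and 23.2 FPKM in the controls, 53.2, 71.0 and 53.7 with R837, and 39.2, 39.8 and 40.7 with both. No overlap was seen between the groups and the spermidine libraries lay in between, with R837 replicate 2 highest. Phgdh rose by 1.16 ± 0.12 with R837, 2.30 times the control mean (limma adjusted p = 5.1e-05). It fell with spermidine (-0.55 ± 0.12 on the log2 scale, limma adjusted p = 0.017), and missed the threshold without spermidine replicate 2 or 3 (0.057 and 0.053) and without R837 replicates 2 and 3 (0.060).

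Psat1, the next enzyme of serine synthesis, was at 10.4, 15.0 and 14.8 FPKM in controls, 13.5, 14.4 and 14.5 with R837, and 9.62, 7.52 and 10.7 with both. Spermidine libraries lay under all R837 libraries and overlapped the controls through control replicate 1. The R837 change was 0.09 ± 0.15 (limma adjusted p = 0.67) and turned to -0.07 without control replicate 1. With spermidine Psat1 fell by 0.57 ± 0.15 on the log2 scale (limma adjusted p = 0.040), and missed the threshold without control replicate 2 or 3 (0.054 for each), without any 1 R837 library (0.073 to 0.079) and without any 1 spermidine library (0.052 to 0.13). Shmt2, the mitochondrial serine hydroxymethyltransferase, averaged 15.5 ± 0.501, 15.0 ± 2.66 and 10.7 ± 0.728 FPKM (SD, n = 3) in controls, with R837 and with both. Shmt2 fell with spermidine by 0.45 ± 0.11 (limma adjusted p = 0.034), and missed the threshold without any 1 control (0.055 to 0.056) or any 1 spermidine library (0.056 to 0.12). Mthfd2, its partner in mitochondrial folate metabolism, rose with R837 by 0.28 ± 0.08 (limma adjusted p = 0.022), from 47.8 ± 2.26 to 58.5 ± 5.92 FPKM. That call was lost without control replicate 3 (0.081) and without R837 replicates 2 and 3 (0.081), and the spermidine change of -0.18 did not pass. Asns, the asparagine synthetase and a classical ATF4 target, was at 37.8 ± 2.80, 44.7 ± 6.69 and 40.9 ± 2.93 FPKM. It did not pass in either comparison, though its R837 change of 0.22 became 0.35 without R837 replicate 2 (limma adjusted p = 0.012) and 0.40 under median-of-ratios scaling (0.024).

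**Figure D5:**
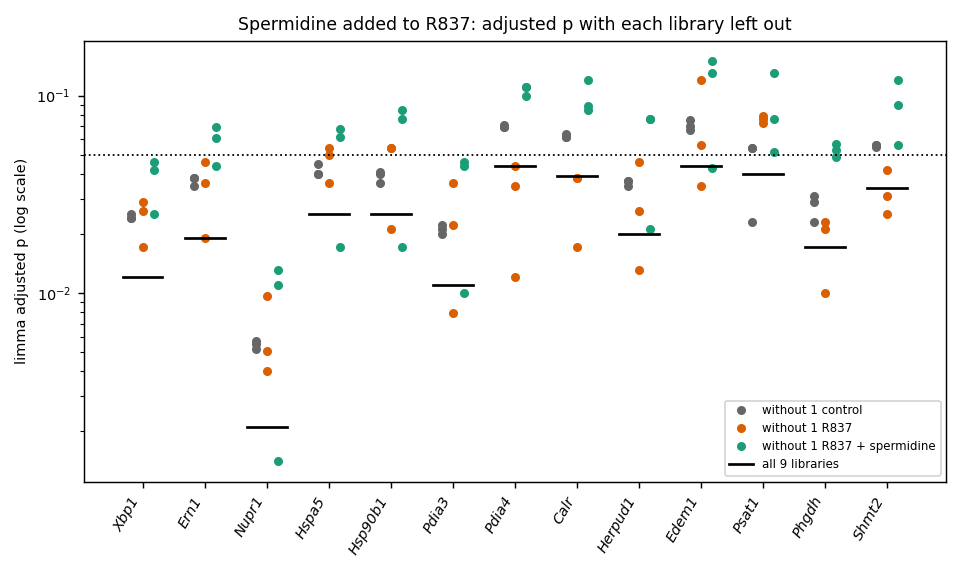
Limma adjusted p (log scale) of the 13 members called for R837 with spermidine against R837, with all 9 libraries (black bar) and with each library left out in turn (points). Xbp1, Nupr1 and Pdia3 stay under the dotted threshold of 0.05 throughout, and Pdia4, Calr, Edem1, Psat1 and Shmt2 lie above it when control replicate 2, which is not in the contrast, is left out.

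R837 with spermidine against control gives the distance that remained from unstimulated cells, and it shares libraries with both comparisons above. Of the 38 members 7 were higher and 9 lower, 42.1%, where 46.8% of all genes passed (14.1% higher and 32.7% lower), so this share is near that of all genes. The groups did not overlap for 24 members, against 62.9% of all genes. Higher were Hspa5 (1.39 ± 0.13 on the log2 scale, limma adjusted p = 4.2e-05), Ppp1r15a (0.97 ± 0.22, 0.0057), Chac1 (0.70 ± 0.12, 0.0014), Hsp90b1 (0.69), Dnajb9 (0.65), Phgdh (0.61) and Ppp1r15b (0.26). Lower were Atf6 (-0.85 ± 0.10, limma adjusted p = 0.00015), Eif2ak3 (-0.72 ± 0.12, 0.0010), Sdf2l1 (-0.68), Ddit3 (-0.63), Atf5 (-0.63), Shmt2 (-0.50), Xbp1 (-0.48), Psat1 (-0.48) and Dnajc3 (-0.36). Ern1 and Herpud1 lay near their control values, with changes of 0.08 ± 0.07 and 0.14 ± 0.11 (limma adjusted p = 0.34 and 0.35), though both passed under median-of-ratios scaling as 0.27 and 0.33 (0.0098 and 0.046). Nupr1 did not pass (0.29 ± 0.11, limma adjusted p = 0.065), but it did under median-of-ratios scaling (0.47, 0.012).

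Of these 16 calls 10 stood without each single library. Atf5 lost its call without any 1 control (limma adjusted p = 0.071 to 0.099), R837 replicate 1 (0.051) or spermidine replicate 2, its lowest library (-0.34, 0.054). Psat1 lost it without control replicate 2 or 3 (0.10 and 0.095) and spermidine replicate 1 or 2 (0.053 and 0.097). Dnajb9 lost it without control replicate 1 or 2 (0.088 and 0.087) and spermidine replicate 1 or 3 (0.080 and 0.094), Hsp90b1 without control replicate 2 (0.081) and spermidine replicate 2 or 3 (0.056 and 0.077), and Dnajc3 without control replicate 3 (0.054) and spermidine replicate 3 (0.056). Ppp1r15b lost it without control replicate 1 or 2 (0.073 and 0.094) and any 1 spermidine library (0.055 to 0.073). Without R837 replicate 2, which enters through the shared spread alone, Pdia3, Pdia4, Calr, Canx, Edem1, Hyou1 and Trib3 passed as well (0.036, 0.0020, 0.028, 0.022, 0.049, 0.034 and 0.0094). Median-of-ratios scaling gave 14 members higher and 5 lower, since it moves the median of all genes in this comparison from -0.17 to -0.00.

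Genes of the same pathways outside the 38 members were counted from lists of their own, to be read against the 43.2% of all genes called with R837 (13.6% higher, 29.5% lower) and the 13.6% called with spermidine (5.60% higher, 8.0% lower). Of 17 tested genes of ER-associated degradation, 1 rose and 3 fell with R837 (23.5% called), and 2 rose and 0 fell with spermidine (11.8%), where 43.2% and 13.6% of all genes were called. With R837 there were 0 higher without control replicate 1 or 2, R837 replicate 1 or 3, or spermidine replicate 2 or 3, and 1 lower without control replicate 1 or 2. The spermidine count was 1 without R837 replicate 1 or spermidine replicate 2 or 3. Vcp, the ATPase that pulls proteins out of the ER membrane, was at 72.4 ± 12.8 FPKM with R837 and 113 ± 8.94 with both (SD, n = 3), and it rose by 0.64 ± 0.12 (limma adjusted p = 0.011). Its cofactor gene Nploc4 rose by 0.30 ± 0.07 (limma adjusted p = 0.023), and missed the threshold without R837 replicate 1 (0.065) or spermidine replicate 2 or 3 (0.085 and 0.087). Edem2, a relative of Edem1, fell with R837 by 0.35 ± 0.08 (limma adjusted p = 0.0058, and 0.12 with median-of-ratios scaling). Of 23 genes of translocation and glycosylation, 0 rose and 6 fell with R837, 26.1% where 29.5% of all genes fell. There were 2 lower without control replicate 1, 3 without R837 replicate 1 and 2 with median-of-ratios scaling, and 1 higher without R837 replicate 2. The largest fall was that of Stt3b, a catalytic subunit of the oligosaccharyltransferase, from 68.8 ± 1.73 to 31.8 ± 2.49 FPKM (log2 change -1.09 ± 0.08, limma adjusted p = 1e-05), and Rpn1 of the same complex changed by -0.55 (0.0027). With spermidine 0 of the 23 passed in limma's test, where 3 were higher and 1 lower at an unadjusted p under 0.05.

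Among 16 tested foldases outside the members, 1 rose and 6 fell with R837, 43.8% called beside 43.2% of all genes, and 4 rose and 0 fell with spermidine, where 5.60% of all genes rose. The count of 4 was 2 without control replicate 1 or 3, and 1 without control replicate 2 or any 1 spermidine library. P4hb, the archetypal protein disulfide isomerase, was at 114 ± 6.06 FPKM in controls, 80.0 ± 10.5 with R837 and 116 ± 4.71 with both (SD, n = 3), and its rise with spermidine was 0.54 ± 0.10 (limma adjusted p = 0.0093). Fkbp11 lay near the floor, at 1.68 ± 0.186 FPKM in controls, 0.389 ± 0.231 with R837 and 1.03 ± 0.162 with both, so few reads stand behind its changes. With spermidine Fkbp11 rose by 0.56 ± 0.14 and Ero1l, the ER oxidase that recharges the isomerases, by 0.59 ± 0.16 (limma adjusted p = 0.031 and 0.040). Both calls were lost without any 1 spermidine library (0.055 to 0.11) and without control replicate 2 (0.052 and 0.064), that of Fkbp11 also without R837 replicate 1 (0.062) and that of Ero1l without control replicate 1 or 3 (0.064 and 0.061). With R837 Fkbp11 and Erp29 fell by 0.96 and 0.79 on the log2 scale, and Dnajc1 rose by 0.59.

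Of 21 tested further ATF4 targets, 8 rose and 2 fell with R837 (47.6% called beside 43.2%), and 3 rose and 3 fell with spermidine (28.6% beside 13.6%). Without control replicate 1 or 2 or R837 replicate 3 there were 5 higher and 1 lower with R837, and there was also 1 lower without R837 replicate 1. With spermidine there were 5 higher without R837 replicate 2 and 1 without spermidine replicate 2, and the lower count was 1 without spermidine replicate 1 or 2 and 0 without spermidine replicate 3. Jdp2, a leucine zipper repressor, rose with R837 from 11.7 ± 0.473 to 36.9 ± 6.27 FPKM (SD, n = 3, limma adjusted p = 5.6e-06), and Bcl2l11, which encodes the death protein BIM, from 10.1 ± 0.474 to 28.2 ± 6.09. Vegfa, an angiogenic factor, fell from 17.8 ± 0.543 to 5.03 ± 0.728 FPKM (log2 change -1.65 ± 0.10, limma adjusted p = 2.2e-06). With spermidine the glycine transporter gene Slc6a9 rose by 0.78 ± 0.12 (limma adjusted p = 0.0038) and Vegfa by 0.48 ± 0.10 (0.015, and 0.062 without spermidine replicate 2). Pck2, the mitochondrial PEPCK, fell by 0.47 ± 0.11 (limma adjusted p = 0.027), and missed the threshold without any 1 spermidine library (0.067 to 0.089). Against control Gdf15, a secreted stress cytokine, and Slc7a11, the cystine importer, were higher with R837 and spermidine by 1.76 ± 0.33 and 1.18 ± 0.13 (limma adjusted p = 0.0025 and 0.00011). With R837 alone both were already higher than control, by 1.34 and 0.79 (limma adjusted p = 0.011 and 0.0011). Their changes with spermidine against R837, 0.42 and 0.38, did not pass (limma adjusted p = 0.43 and 0.082). The R837 libraries of Gdf15 varied widely, at 280, 367 and 118 FPKM. Of 12 tRNA synthetases, which ATF4 also induces, 0 rose and 2 fell with R837, and 0 rose and 2 fell with spermidine, 16.7% in each, where 29.5% and 8.0% of all genes fell. With R837 there was 1 lower without any 1 control or R837 replicate 1, and at an unadjusted p under 0.05 there were 1 higher and 3 lower. The spermidine calls were Wars (-0.40 ± 0.07, limma adjusted p = 0.0094) and Mars (-0.42 ± 0.10, 0.030), and that of Mars was lost without control replicate 1 (0.052), R837 replicate 1 (0.061) or any 1 spermidine library (0.065 to 0.10).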

How the data were processed

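The authors deposited 1 FPKM value for each gene in each library, as the file headers state. The submitters' processing notes list HISAT2, StringTie, mm8 and mm10 with neither version nor role, and the annotation release is not given in the sources used here. Of 52550 identifiers 52403 (99.7%) matched GENCODE mouse release 21 (mm10) without version suffix, and rows were summed per symbol. All 37 mitochondrial genes were listed at 0. FPKM sums ranged from 310220 to 326222.

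The 11768 genes that reached 1 FPKM in 3 or more libraries went into a test with limma 3.58.1 in R 4.3.3 on log2(FPKM + 1), which understates changes of low genes. A single fit held all 3 groups (lmFit, eBayes with a trend, two-sided, Benjamini-Hochberg within each contrast, threshold 0.05). No count test was run, since 27.9% to 32.1% of low values were whole multiples of a step within 0.05.

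The members, branches, pathway lists and tests were chosen with earlier results of these data known. Values in every library are given for the sensors, Xbp1, Atf4, Ddit3, Hspa5 and each member called with a log2 change of at least 0.5 and a mean of at least 2 FPKM, 22 genes. From each pathway list up to 3 called genes per contrast with the largest changes could be named, and the text gives part of them, picked after their values were seen. Hspa1a, Hspa1b, Jun, Zbtb46, Sdc1 and Prdm1 were named after their values were seen. Alternatives were a pseudocount of 0.1, no filter, a mean FPKM of at least 5, 3 other scalings, no trend, the replicate number as a block, and leaving out each library or R837 replicates 2 and 3 together.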

Additional observations from a re-analysis of the deposited data

How the results depend on the processing

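No member changed sign in a comparison in which it had passed the threshold, under any alternative. Of 2052 member values computed under alternatives 53 changed sign, 0 of them past the threshold of limma's adjusted p, and the largest was 0.19. With R837 against control and median-of-ratios scaling these were Dnajb11 (0.13), Pdia6 (0.04), Creld2 (0.03), Manf (0.16), Syvn1 (0.15), Atf4 (0.11) and Shmt2 (0.12). With quantile normalization they were Manf (0.08), Syvn1 (0.04), Sesn2 (-0.00) and Shmt2 (0.00), and with TPM Manf (0.01). Without R837 replicates 2 and 3 they were Dnajb11 (0.07), Manf (0.08), Ddit4 (-0.06), Trib3 (-0.05) and Sesn2 (-0.03), and Dnajb9 with spermidine against R837 (-0.05). For R837 with spermidine against control, median-of-ratios scaling gave Dnajb11 0.09, Pdia6 0.19, Creld2 0.11, Manf 0.07, Sel1l 0.11 and Atf4 0.07, quantile normalization Pdia6 0.03 and TPM Pdia6 0.01. Leaving out single libraries, the R837 change ranged from -0.14 to -0.00 for Dnajb11, -0.05 to 0.04 for Manf, -0.20 to 0.09 for Syvn1, -0.07 to 0.12 for Sec61b, -0.04 to 0.08 for Ddit4, -0.04 to 0.09 for Trib3, -0.09 to 0.08 for Sesn2, -0.07 to 0.17 for Psat1 and -0.18 to 0.02 for Shmt2. The spermidine change against R837 ranged from -0.01 to 0.13 for Creld2, -0.14 to 0.01 for Sdf2l1, -0.04 to 0.25 for Syvn1 and -0.04 to 0.13 for Sesn2, and that against control from -0.07 to 0.05 for Pdia6, -0.21 to 0.11 for Sel1l and -0.06 to 0.14 for Syvn1. The cause was not tested.

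Counts moved more. With R837 the 3477 genes that fell became 1842 with a mean FPKM of at least 5, which tests fewer genes (6322), and 1941 with median-of-ratios scaling, which moved the median of all genes from -0.17 to -0.02. With spermidine against R837 the 7 risen members became 2 without a filter, 3 with the replicate block and 2 without R837 replicates 2 and 3, and 2 to 6 without single libraries. The 6 fallen members became 1 without R837 replicates 2 and 3 and 1 to 6 without single libraries. Over all genes the 659 higher and 942 lower became 416 and 410 without R837 replicates 2 and 3, and 290 to 739 and 459 to 933 without single libraries. Against control, R837 with spermidine had 7 members higher and 9 lower, which became 14 and 5 with median-of-ratios scaling, 4 to 10 and 7 to 13 without single libraries. The 3850 genes lower became 2021 with the stricter filter and 2168 with median-of-ratios scaling. Same-numbered libraries of different groups correlated between -0.091 and 0.159 in their deviations, so the replicate numbers do not pair the libraries. With the replicate block 4 members fell with spermidine against R837.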

Other observations

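Transcripts that IRE1α is known to cleave in other settings, and the eIF2 kinases beside PERK, were measured as well. Of 5 tested transcripts of the first kind 2 rose and 1 fell with R837 (13.6% and 29.5% of all genes), and 0 rose and 4 fell with spermidine, where 8.0% of all genes fell. Pdgfrb, a growth factor receptor gene, was at 0.182 ± 0.0986 FPKM in controls, 11.2 ± 0.472 with R837 and 3.89 ± 0.413 with both (SD, n = 3), and its log2 changes were 3.37 ± 0.10 and -1.32 ± 0.10 (limma adjusted p = 2.7e-08 and 0.00014). Tapbp, which encodes the MHC class I loading factor tapasin, rose with R837 by 0.66 ± 0.07 (limma adjusted p = 7.6e-05). Bloc1s1, the most often cited of these transcripts, was at 9.63 ± 1.54, 9.75 ± 0.721 and 6.11 ± 1.05 FPKM, and Hgsnat at 62.3 ± 1.28, 58.2 ± 1.98 and 48.1 ± 2.55. They fell with spermidine by 0.61 ± 0.14 and 0.27 ± 0.07 (limma adjusted p = 0.023 and 0.030). The Bloc1s1 call was lost without R837 replicate 1 (0.066) or spermidine replicate 2 or 3 (0.076 and 0.061), and the Hgsnat call without any 1 library except R837 replicate 2 (0.054 to 0.089). The count of 4 was 1 without R837 replicate 1, spermidine replicate 2 or 3, or R837 replicates 2 and 3, and 2 without any 1 control or spermidine replicate 1.

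Of 11 eIF2 kinases and subunits of eIF2 and eIF2B, 1 rose and 2 fell with R837 (27.3% called, where 43.2% of all genes were), and 0 rose and 1 fell with spermidine (9.09%, where 13.6% were). With R837 there was 1 lower without control replicate 2 or 3, and there were 2 higher without control replicate 3 or R837 replicate 2. Eif2ak1, the heme-regulated kinase, fell by 0.36 ± 0.11 on the log2 scale with R837 (limma adjusted p = 0.027), a call lost without any 1 control (0.068 to 0.070). Eif2ak4, the amino acid sensing kinase GCN2, fell with R837 from 6.22 ± 0.231 to 3.84 ± 0.303 FPKM (SD, n = 3, limma adjusted p = 0.00051). Eif2b2, a subunit of the eIF2B exchange factor, was at 22.3 ± 0.576, 27.3 ± 1.83 and 20.9 ± 0.349 FPKM, with log2 changes of 0.28 ± 0.07 with R837 and -0.37 ± 0.07 with spermidine (limma adjusted p = 0.011 for each). Of 6 tested handling and heat shock genes 3 rose and 2 fell with R837 (83.3% called beside 43.2% of all genes), and 4 rose and 1 fell with spermidine (83.3% beside 13.6%). Jun and Fos fell with R837 by 1.13 and 1.3 on the log2 scale. Of the remaining marker lists, 1 of 5 B cell genes, 2 of 4 of plasmacytoid dendritic cells, 0 of 5 of T and NK cells and 3 of 4 of mast cells, basophils and eosinophils reached an FPKM of 1. The last list summed to 42.3 FPKM in R837 replicate 3, 14.4 in R837 replicate 2 and at most 8.29 elsewhere.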
